A study of Mus musculus with 12 samples.

Results

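Nuclear receptors are transcription factors whose activity is set by small lipid-soluble ligands such as steroids, thyroid hormone, retinoids and fatty acids, and the superfamily also holds orphan receptors with no agreed ligand. A typical member binds DNA through a pair of zinc fingers and binds its ligand through a separate domain, and many members pair with a retinoid X receptor. In embryonic stem cells some members belong to the pluripotency network, and others appear as the cells leave that state. The 40 genes described here are a list of symbols looked up in the array platform's annotation. The look-up used no measured value, but the list itself was drawn up with earlier results of these data known. For 38 of them a probe set with that gene alone was found. Nr1h2 and Nr2e3 were not analysed here. The 38 genes were among 18193 genes with a symbol of their own, and where a gene had several probe sets, the one that was highest on average across the 12 arrays stood for it, with no filter on low values. The members had 103 probe sets in all, 13 members had 1 probe set, and Rora had 9.

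The 12 arrays held RNA of mouse ES cells of the D3 line, cultured on mouse embryonic fibroblasts treated with MMC and made to differentiate as embryoid bodies, in 4 groups of 3. NP day8 and BPA day8 were differentiated cells that had received the agents so labelled, control day8 were differentiated cells with no agent, and control day0 were ES cells with no agent. The labels give neither full names nor doses of the agents, nor a word on separate cultures behind the replicates. The p-values therefore cover only the spread among these 12 arrays, which may be technical. D3 is 1 line, and day 0 arrays can hold RNA of the feeder fibroblasts.

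Values are log2 signals as deposited. Levels were set against 2 measures of background, because the table came with no detection calls. The highest of 36 values of the 3 bacterial TrpnX control probe sets was 3.41, a signal of 10.6. The 95th percentile of 44 probe sets of olfactory receptor genes, which stem cells are not known to use, was 3.86, a signal of 14.6. A member was taken as above background in a group when all 3 arrays exceeded 3.41. By this measure 23 of 38 members were above background with NP, 21 with BPA, 22 in control day8 and 18 in control day0. Over all genes the share was 62.7%, 63.3%, 63.0% and 60.1% in the same order, against 60.5%, 55.3%, 57.9% and 47.4% of the members. With the olfactory measure the counts of members were 21, 19, 20 and 17.

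Above background on all 12 arrays were 16 members: Esrra, Nr3c1, Ppard, Rxra, Rxrb, Thra, Nr1d2, Rora, Nr2c1, Nr2c2, Nr2f2, Nr2f6, Nr4a1, Nr4a2, Nr5a2 and Nr6a1. Nr0b2, the small heterodimer partner that lacks a DNA-binding domain, was below it on all 12. The remaining 21 members were above it on some arrays. Arrays do not allow the level of one gene's probe set to be set against that of another, so each gene is compared only with itself and with background.

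**Figure D1:**
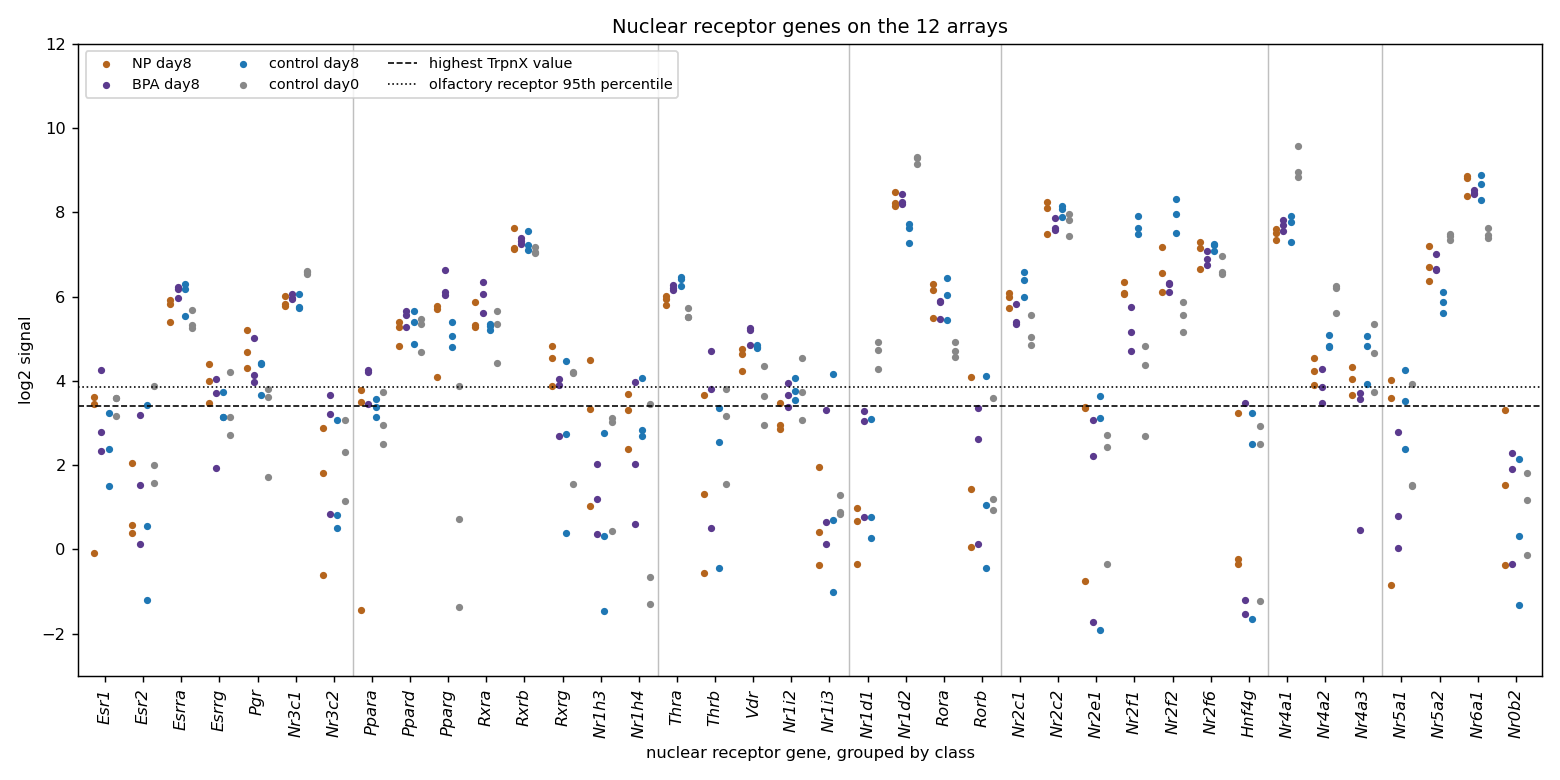
Log2 signal of each of the 38 measured nuclear receptor genes (x axis, grouped by class between grey lines) on the 12 arrays, with 3 points per group. The dashed line is the highest TrpnX value (3.41) and the dotted line the olfactory receptor level (3.86); points of 16 genes all lie above the dashed line, and those of Nr0b2 all lie below it.

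The markers of pluripotent cells, fibroblasts and other cell types differed between the groups, and these values accompany every result below. The summed signal of 8 pluripotency markers was 16466 to 21958 on NP day8, 20001 to 20884 on BPA day8, 3396 to 6932 on control day8 arrays and 28003 to 28713 at day 0. That of 10 fibroblast markers was 568 to 911, 701 to 900.4, 6036 to 9044 and 6676 to 8412 in the same order, and 7, 7, 8 and 10 of the 10 were above background on all 3 arrays of the group. For 7 cardiac markers it was 224 to 1732, 208 to 515, 2912 to 4928 and 110 to 132, and for 6 endothelial markers 137 to 198, 148 to 177, 449 to 519 and 45.7 to 77.6. The endothelial markers Cdh5, Tie1 and Emcn and the cardiac markers Tnnt2 and Myh7 were below background on every control day0 array, Tie1 on every NP and BPA array and Emcn on every BPA array. The sums for 8 visceral endoderm markers were 12425 to 14029, 7380 to 10538, 7211 to 14640 and 86.2 to 114, and those for 6 neural markers 198 to 230.2, 122 to 217, 113 to 223 and 309 to 375. Afp and Ttr were below background on the control day0 arrays. In bulk RNA, fewer cells of a type and less RNA per cell cannot be told apart, and the part of these markers in the results was not tested.

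The first question was which candidate receptors of the agents the cells carried. If the labels stand for bisphenol A and nonylphenol, which they do not state, the receptors usually named are the estrogen receptors Esr1 and Esr2, the estrogen-related receptors Esrra and Esrrg, the progesterone receptor Pgr, the glucocorticoid receptor Nr3c1, the thyroid hormone receptors, the adipogenic receptor Pparg and the xenobiotic sensors Nr1i2 and Nr1i3. The aryl hydrocarbon receptor Ahr and the membrane receptor Gper1 lie outside the superfamily. Of these candidates 13 were measured.

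The classical estrogen receptors lay at background. Esr1 had 3.46, -0.09 and 3.62 on NP day8, 2.33, 2.78 and 4.26 on BPA day8, 1.50, 3.25 and 2.39 on control day8, and 3.18, 3.60 and 3.59 on control day0 arrays. It exceeded the TrpnX level on 5 of 12 arrays and the olfactory level on 1. Esr2 had 0.39, 2.05 and 0.58 on NP day8, 1.53, 3.20 and 0.14 on BPA day8, 3.43, 0.56 and -1.21 on control day8, and 3.88, 2.01 and 1.58 on control day0 arrays. That is 2 arrays above the TrpnX level, and no group had Esr1 or Esr2 above it on all 3 arrays. A signal at background does not show that a gene is silent.

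Esrrg, an orphan receptor for which a high affinity to bisphenol A is known, was above the TrpnX level on all NP day8 arrays (4.41, 4.01 and 3.48), on 2 of 3 BPA day8 arrays (4.05, 3.70 and 1.93), and on 1 of 3 in both control day8 (3.15, 3.73 and 3.14) and control day0 (3.15, 4.20 and 2.72). These groups overlapped, and the change was 0.63 ± 0.57 (SE) with NP and -0.11 ± 0.57 with BPA against control day8 (adjusted p = 0.605 and 0.934). Another Esrrg probe set, described at the end, was above the level on all control day8 arrays (4.95, 5.23 and 5.01). On BPA day8 arrays it was below the level throughout (-0.66, 3.34 and 0.71), so the presence of Esrrg depends on the probe set. The related receptor Esrra, a regulator of mitochondrial genes, was above both levels on all 12 arrays, at 5.72 ± 0.29 (SD, n = 3) on NP day8, 6.13 ± 0.14 on BPA day8, 6.0 ± 0.41 on control day8 and 5.42 ± 0.22 on control day0. Neither agent moved it past the threshold (BPA 0.12, 95% interval -0.40 to 0.64; NP -0.29, -0.81 to 0.23).

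Pgr, itself an estrogen target in reproductive tissue, was above the TrpnX level on every day 8 array, with 4.32, 4.70 and 5.20 on NP, 3.98, 5.02 and 4.14 on BPA and 4.41, 4.42 and 3.67 on control day8. Control day0 arrays had 3.81, 1.72 and 3.61. The day 8 groups overlapped, and the 95% intervals of the change against control day8 were wide, at -0.67 to 1.82 with NP and -1.03 to 1.46 with BPA. The other 2 probe sets of Pgr were above the level on 1 array and on 0 arrays.

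Among the xenobiotic sensors, Nr1i2 (PXR) had 3.47, 2.87 and 2.95 on NP day8, 3.38, 3.96 and 3.68 on BPA day8, 3.76, 3.54 and 4.07 on control day8, and 3.74, 3.08 and 4.54 on control day0 arrays. It was above the TrpnX level on 8 arrays and above the olfactory level on 3, so it stood at the edge of background. The NP and control day8 groups did not overlap, but the change of -0.69 ± 0.35 did not pass (adjusted p = 0.304). Nr1i3 (CAR) exceeded the level on 1 array and Thrb on 4. Ahr was above it on all 12 arrays, with changes of 0.34 ± 0.15 with NP and 0.13 ± 0.15 with BPA (adjusted p = 0.232 and 0.643). Gper1 was above it on 1 NP, 1 BPA, 1 control day8 and 2 control day0 arrays.

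**Figure D2:**
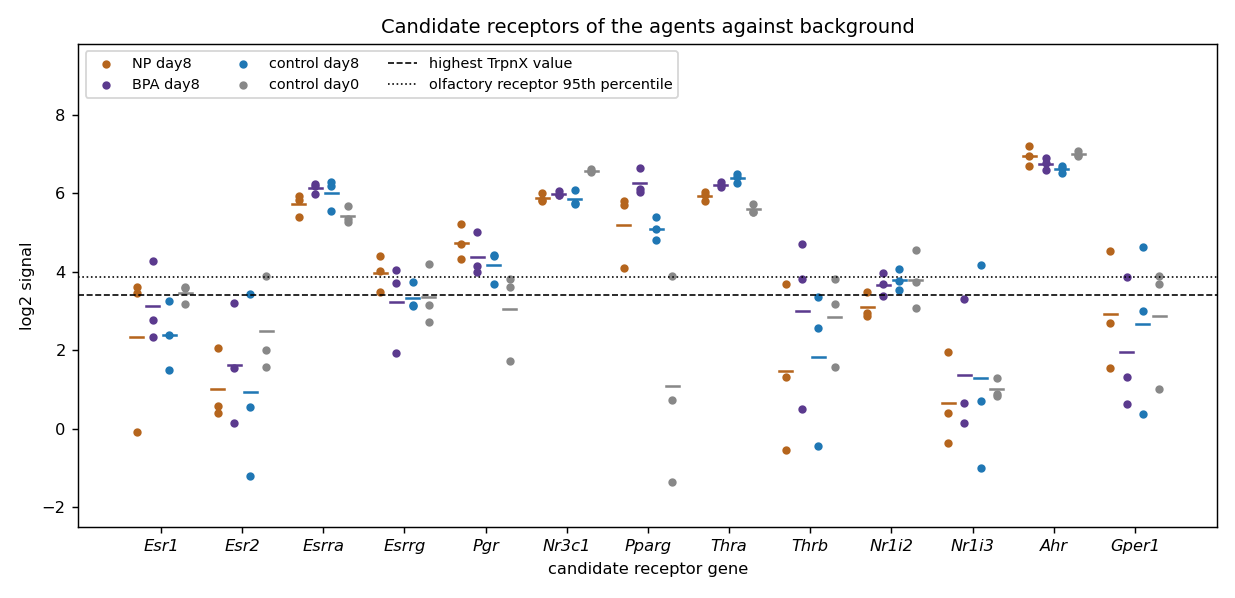
Log2 signal of the 13 measured candidate receptors (x axis) on the 12 arrays, with points for arrays and bars for group means. Esrra, Nr3c1, Thra and Ahr lie above both background lines (3.41 dashed, 3.86 dotted) on all arrays and Pparg on all day 8 arrays, while Esr1, Esr2, Thrb and Nr1i3 scatter around or below them.

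Of the 13 measured candidates, Thra, Nr3c1 and Pparg passed over control differentiation. That is 23.1%, against 32.2% of all genes, and so no result about the candidates as a set. Thra, the thyroid hormone receptor alpha, had 5.79, 5.95 and 6.03 on NP day8, 6.20, 6.28 and 6.16 on BPA day8, 6.42, 6.25 and 6.48 in control day8 and 5.74, 5.51 and 5.51 in control day0. Both control groups stood apart, and Thra rose by 0.80 ± 0.12 at day 8 (adjusted p = 0.000836). The NP arrays lay below all BPA and all control day8 arrays. The change of -0.46 ± 0.12 with NP stood at the threshold without passing it (adjusted p = 0.0501), and passed in 4 of 25 alternatives (adjusted p between 0.0116 and 0.62 over all of them).

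Nr3c1 was at 5.87 ± 0.12 on NP day8, 5.99 ± 0.06 on BPA day8, 5.85 ± 0.19 on control day8 and 6.57 ± 0.04 on control day0 (SD, n = 3 each). It fell by 0.72 ± 0.12 over control differentiation (adjusted p = 0.00185), and the agents left intervals of -0.26 to 0.29 (NP) and -0.14 to 0.41 (BPA) around no change. Fibroblasts also express this receptor. The fibroblast sums of the control day8 arrays (6036 to 9044) overlapped those of the control day0 arrays (6676 to 8412). Of the 10 fibroblast markers, 4 were called higher and 3 lower on control day8. The part of fibroblasts in the fall of Nr3c1 was not tested.

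Pparg, the master regulator of fat cell formation, had 5.79, 5.70 and 4.08 on NP day8, 6.04, 6.11 and 6.63 on BPA day8, 4.79, 5.40 and 5.07 on control day8 and 0.72, 3.89 and -1.37 on control day0 arrays. Pparg was higher on control day8 than on control day0 by 4.01 ± 1.09 (adjusted p = 0.02), and at least 2.88-fold with values under background set to it. That call was lost without control day0 replicate 1 (adjusted p = 0.0609) or control day8 replicate 2 (adjusted p = 0.0596), within a range of 0.000993 to 0.0976 over the alternatives. All 3 BPA arrays lay above all NP and control day8 arrays. The 2.25-fold difference between BPA and control day8 did not pass (1.17 ± 1.09, adjusted p = 0.568). The scatter of the day 0 arrays below background enters that standard error. The difference was called in 1 of 24 alternatives, a pseudocount of 32 (adjusted p = 0.0248). It was not called with values floored at background or with a pseudocount of 8. Nor was it called with only the BPA day8 and control day8 arrays in the fit. That fit holds no day 0 array but also fewer arrays in all. Apart from it, the part of the day 0 scatter was not tested.

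Differentiation without an agent was the largest contrast for the superfamily. Between control day8 and control day0, 14 of 38 members passed, 8 higher and 6 lower, which is 36.8% against a background of 32.2% of all genes (18.7% higher and 13.5% lower). The median change was 0.08 over the members and 0.10 over all genes. The share of members that passed was thus near that of the array as a whole. The groups did not overlap for 15 members, where the background was 44.5% of genes. All 14 had 3 arrays above background in their higher group.

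The chicken ovalbumin upstream promoter factors Nr2f1 and Nr2f2, orphan receptors of mesoderm, vessels and neural crest, had the largest changes among members above background on all 9 day 8 arrays, apart from Pparg. Nr2f1 had 6.36, 6.06 and 6.08 on NP day8, 5.77, 5.16 and 4.72 on BPA day8, 7.64, 7.91 and 7.48 on control day8 and 4.83, 4.39 and 2.69 on control day0 arrays. The NP, BPA and control day8 arrays did not overlap with one another, and BPA and day 0 arrays shared part of their range. Nr2f1 was higher on control day8 than on control day0 arrays by 3.71 ± 0.49 (adjusted p = 0.000499), and at least 11.1-fold with values floored at background.

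For Nr2f2 the arrays read 7.17, 6.56 and 6.11 with NP, 6.30, 6.11 and 6.33 with BPA, 7.96, 8.31 and 7.52 on control day8 and 5.88, 5.57 and 5.17 on control day0. It rose 5.23-fold over control differentiation (2.39 ± 0.30, adjusted p = 0.000387). All 6 of its probe sets had a higher mean on control day8 than on control day0. The third related receptor, Nr2f6, went the same way without passing on its chosen probe set (0.49 ± 0.19, adjusted p = 0.084), and passed in 5 of 25 alternatives (0.0383 to 0.331). Its second probe set, also above background on all arrays, was higher by 0.63 in a fit over all probe sets (adjusted p = 0.0255).

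With BPA, 5 of 38 members passed against control day8, 2 higher and 3 lower, which is 13.2% against a background of 12.4% (6.72% higher and 5.65% lower). With NP it was 3 members, 2 higher and 1 lower, 7.89% against a background of 6.5% (3.68% higher and 2.82% lower). Both shares are near the background and no result about the superfamily. The comparisons share the control day8 arrays, so the likeness of their changes is not independent. Groups did not overlap for 10 members with BPA (33.6% of all genes) and for 8 with NP (28.3% of all genes).

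Nr2f1 was lower on BPA than on control day8 arrays by 2.46 ± 0.49 on the log2 scale, 5.50-fold (adjusted p = 0.0136). Without BPA day8 replicate 3 the adjusted p was 0.0521, the highest of its alternatives. With NP the change was -1.51 ± 0.49 and did not pass (adjusted p = 0.112), though it passed in 5 alternatives (adjusted p from 0.000404 to 0.259 over all). Nr2f2 fell by 1.68 ± 0.30 with BPA, 3.21-fold (adjusted p = 0.00873), and this call was kept in all 25 alternatives. With NP it fell by 1.32 ± 0.30, 2.49-fold (adjusted p = 0.0366), a call lost in 10 of 25 alternatives (adjusted p up to 0.159). The fibroblast, cardiac and endothelial sums given above were lower with both agents as well, and the part of these cells in the fall of Nr2f1 and Nr2f2 was not tested.

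Nr5a2 (LRH-1), which binds the Pou5f1 promoter in stem cells and can help reprogram fibroblasts in mouse, ran the other way. It had 6.37, 7.20 and 6.70 on NP day8, 6.63, 7.02 and 6.65 on BPA day8, 5.61, 6.12 and 5.87 on control day8 and 7.34, 7.43 and 7.50 on control day0 arrays. Both groups with an agent lay between the 2 control groups without touching either. Nr5a2 fell 2.94-fold over control differentiation (-1.56 ± 0.22, adjusted p = 0.000709). It was 1.85-fold higher with NP (0.89 ± 0.22, adjusted p = 0.0475) and 1.87-fold higher with BPA (0.90 ± 0.22, adjusted p = 0.0295) than on control day8 arrays. The call with NP was lost in 15 of 25 alternatives (adjusted p up to 0.188) and that with BPA in 6 (up to 0.107). The 3 probe sets above background on all arrays fell at day 8 by 1.14 to 2.32. In a fit over all probe sets, those not chosen differed in their change against control day8. The higher of them changed by 0.87 with NP and 0.88 with BPA (adjusted p = 0.0759 and 0.044). The lower changed by 0.18 with NP and 0.43 with BPA (adjusted p = 0.787 and 0.368).

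Nr6a1 (GCNF), which represses Pou5f1 when stem cells differentiate, rose at day 8 and did not differ between the day 8 groups past the threshold. The arrays read 8.82, 8.86 and 8.39 with NP, 8.45, 8.54 and 8.47 with BPA, 8.67, 8.88 and 8.29 on control day8, and 7.64, 7.47 and 7.40 on control day0. The rise was 2.16-fold (1.11 ± 0.18, adjusted p = 0.00141). Against control day8 the intervals were -0.33 to 0.48 with NP and -0.54 to 0.27 with BPA. A second probe set above background on all arrays rose by 1.14, while the mean over all 5 probe sets did not pass (adjusted p = 0.692).

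The heme-binding repressors of the clock fell at day 8. Nr1d2 had 8.16, 8.49 and 8.22 on NP day8, 8.19, 8.43 and 8.24 on BPA day8, 7.27, 7.73 and 7.62 on control day8 and 9.29, 9.31 and 9.14 on control day0 arrays. As for Nr5a2, the agent groups lay between the control groups with no overlap. Nr1d2 fell 3.27-fold over control differentiation (-1.71 ± 0.15, adjusted p = 7.07e-05). It was 1.68-fold higher than control day8 with NP (0.75 ± 0.15, adjusted p = 0.0227) and with BPA (0.75 ± 0.15, adjusted p = 0.0141). The call with NP was lost in 5 of 25 alternatives, in 1 of them with the sign turned (-0.14, with the mean of its probe sets), and that with BPA in 3.

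Its paralog Nr1d1 was below background on all 9 day 8 arrays, where its highest value was 3.28, and had 4.92, 4.74 and 4.29 on control day0 arrays. It was lower on control day8 than on control day0 by 3.26 ± 0.84 (adjusted p = 0.0153), and at least 2.37-fold with values floored at background. The call was lost without control day8 replicate 2 (adjusted p = 0.0568) or 3 (adjusted p = 0.0517), with a range of 9.73e-05 to 0.0568 over the alternatives. Rora, an activator that competes with these repressors for the same DNA element, had 6.31, 5.50 and 6.16 on NP day8, 5.91, 5.47 and 5.87 on BPA day8, 5.45, 6.45 and 6.05 on control day8 and 4.57, 4.70 and 4.93 on control day0 arrays. The day 8 groups overlapped and lay above day 0. Rora rose 2.38-fold at day 8 on its chosen probe set (1.25 ± 0.29, adjusted p = 0.00916). Its 3 other probe sets above background on all arrays changed by 0.03 to 0.57 and did not pass, and the mean of its probe sets did not pass either (adjusted p = 0.276). Rorb, the neural relative, was above background on 3 arrays.

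The promoter of Nr1d2 and one of the promoters of Nr5a2, which passed in the same directions in 3 comparisons, each hold the hexamer AGGTCA, the core element that most nuclear receptors bind. The windows are the 250 bases before the RefSeq start in build GRCm38.p6, 5′ to 3′, and the hexamer or its reverse complement TGACCT is in capitals.

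Nr1d2 (chr14:18239107-18239356, - strand): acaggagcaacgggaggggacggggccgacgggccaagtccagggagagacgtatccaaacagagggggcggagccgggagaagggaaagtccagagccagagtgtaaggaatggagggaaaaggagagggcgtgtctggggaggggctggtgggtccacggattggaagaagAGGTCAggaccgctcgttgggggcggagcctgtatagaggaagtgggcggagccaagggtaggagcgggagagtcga

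Nr5a2 (chr1:136960449-136960698, - strand): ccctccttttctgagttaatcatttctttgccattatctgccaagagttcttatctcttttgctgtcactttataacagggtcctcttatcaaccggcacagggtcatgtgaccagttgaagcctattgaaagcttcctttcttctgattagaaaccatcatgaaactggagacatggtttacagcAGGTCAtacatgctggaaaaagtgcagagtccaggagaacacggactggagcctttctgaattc

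The hexamer was sought on both strands of these windows. It was present in 9 of 49 promoters of the 34 measured members with a promoter in the table (18.4%), and in 14.0% of all 32851 promoters of the table. The other Nr5a2 promoter and those of Nr2f1 and Nr2f2 hold no match. A match is a description and not a bound site.

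The NR4A receptors are immediate early genes that respond to growth factors and cyclic AMP and need no ligand. Nr4a1 had 7.51, 7.61 and 7.36 on NP day8, 7.83, 7.71 and 7.57 on BPA day8, 7.93, 7.77 and 7.30 on control day8 and 8.84, 8.97 and 9.58 on control day0 arrays. All day 8 arrays lay below all day 0 arrays, and Nr4a1 fell 2.76-fold over control differentiation (-1.46 ± 0.22, adjusted p = 0.00103). The agents did not move it past the threshold, with intervals of -0.68 to 0.33 for NP and -0.47 to 0.54 for BPA.

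Nr4a2, known from dopamine neurons, had 4.54, 4.24 and 3.91 on NP day8, 3.85, 4.28 and 3.48 on BPA day8, 5.10, 4.79 and 4.83 on control day8, and 5.62, 6.26 and 6.20 on control day0 arrays. It fell over control differentiation (-1.12 ± 0.26, adjusted p = 0.00893) and was lower again with BPA (-1.04 ± 0.26, adjusted p = 0.031), so the BPA mean lay furthest from day 0, although BPA and NP arrays overlapped and did not differ past the threshold (adjusted p = 0.838). With NP the change of -0.68 ± 0.26 did not pass (adjusted p = 0.17). The call of Nr4a2 with BPA was lost in 11 of 25 alternatives (adjusted p up to 0.155). It did not survive the removal of any single control day8 array or of BPA arrays 1 or 3 (adjusted p from 0.056 to 0.108), nor the replicate block (adjusted p = 0.0532). Quantile normalization (adjusted p = 0.0553), median centring (adjusted p = 0.0514) and the mean-dependent prior (adjusted p = 0.0641) ended it as well. The only other of the 6 Nr4a2 probe sets above background on all arrays changed by 0.07 between the control groups. Nr4a3 had 4.06, 4.33 and 3.66 on NP day8, 3.71, 0.45 and 3.57 on BPA day8, 4.83, 5.07 and 3.92 on control day8, and 3.73, 4.67 and 5.34 on control day0 arrays. BPA and control day8 arrays did not overlap, but the change did not pass (adjusted p = 0.15). Between the control groups the chosen Nr4a3 probe set changed by 0.02 ± 0.82 (adjusted p = 0.99). Another Nr4a3 probe set, above background on 2 arrays, was lower by 4.36 in a fit over all probe sets (adjusted p = 0.0021), and the mean of the probe sets was called lower (-1.63, adjusted p = 0.021).

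All 3 NR4A promoters hold 4 matches to TGACG, the core of the cyclic AMP response element, in the 250 bases before the RefSeq start (GRCm38.p6, 5′ to 3′). In the windows, TGACG and its reverse complement CGTCA are in capitals.

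Nr4a1 (chr15:101266596-101266845, + strand): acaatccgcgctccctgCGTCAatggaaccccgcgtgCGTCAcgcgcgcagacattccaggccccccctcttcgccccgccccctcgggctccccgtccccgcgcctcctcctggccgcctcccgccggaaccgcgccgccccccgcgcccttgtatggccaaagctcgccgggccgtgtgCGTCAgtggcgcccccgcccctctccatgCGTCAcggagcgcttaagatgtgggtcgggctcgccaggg

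Nr4a2 (chr2:57124004-57124253, - strand): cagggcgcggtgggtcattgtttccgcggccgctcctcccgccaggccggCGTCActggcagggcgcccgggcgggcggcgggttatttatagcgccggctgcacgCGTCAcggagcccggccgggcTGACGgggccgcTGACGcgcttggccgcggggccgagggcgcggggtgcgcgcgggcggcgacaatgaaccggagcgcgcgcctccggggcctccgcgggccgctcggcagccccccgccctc

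Nr4a3 (chr4:48045055-48045304, + strand): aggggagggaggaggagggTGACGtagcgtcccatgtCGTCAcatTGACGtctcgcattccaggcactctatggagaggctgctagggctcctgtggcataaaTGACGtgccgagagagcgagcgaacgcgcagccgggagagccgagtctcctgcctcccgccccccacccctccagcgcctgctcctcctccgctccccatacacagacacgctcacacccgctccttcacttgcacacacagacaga

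Among all 32851 promoters, 17.8% held at least 1 match to TGACG on either strand and 45 (0.137%) held at least 4. Of the members' promoters 11 of 49 (22.4%) held a match, and those of the NR4A genes were the 3 with at least 4. The full palindrome TGACGTCA, which contains this core on both strands, was found in 1.55% of all promoters and in 1 of the members', that of Nr2e1.

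Of the remaining NR2 members, the testicular receptors Nr2c1 and Nr2c2 were above background on all arrays. Nr2c1 had 6.0, 5.73 and 6.08 on NP day8 and 5.05, 4.86 and 5.58 on control day0 arrays. It rose 2.23-fold over control differentiation on its chosen probe set (1.16 ± 0.23, adjusted p = 0.00463), while a second probe set above background on all arrays changed by 0.04. Nr2c1 was lower on all BPA arrays (5.83, 5.35 and 5.41) than on control day8 arrays (6.39, 6.58 and 6.0), a change of -0.79 ± 0.23 that did not pass (adjusted p = 0.0585) but passed in 8 of 25 alternatives (0.0155 to 0.297). Its second probe set changed by -0.23 with BPA in a fit over all probe sets (adjusted p = 0.661). Nr2c2 did not change past the threshold. The brain receptor Nr2e1 and the gut receptor Hnf4g were above background on 1 array each.

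The vitamin D receptor Vdr had 4.76, 4.64 and 4.25 on NP day8, 4.86, 5.26 and 5.22 on BPA day8, 4.86, 4.77 and 4.81 on control day8 and 3.65, 2.95 and 4.35 on control day0 arrays. All day 8 arrays but NP day8 replicate 3 lay above all day 0 arrays. Vdr was higher on control day8 than on control day0 by 1.16 ± 0.31 (adjusted p = 0.0183), and at least 2.01-fold with values floored at background. The call was lost without control day8 replicate 1 (adjusted p = 0.0535, with 0.00242 to 0.597 over the alternatives). The shared partners Rxra and Rxrb and the fatty acid receptor Ppard were above background on all arrays and passed in no comparison. The chosen Rxra probe set was higher on all BPA arrays (5.60, 6.34 and 6.06) than on control day8 arrays (5.20, 5.35 and 5.30), at 0.72 ± 0.32 (adjusted p = 0.198). Another Rxra probe set above background on all arrays went the other way with BPA, by -0.33 in a fit over all probe sets (adjusted p = 0.55). Rxrb stayed between 7.05 and 7.63 on the 12 arrays. Rxrg, the liver receptor Nr1h3, the bile acid receptor Nr1h4, Ppara, the mineralocorticoid receptor Nr3c2 and the steroidogenic factor Nr5a1 were above background on 8, 1, 4, 7, 1 and 5 arrays in turn, and did not pass in any comparison.

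**Figure D3:**
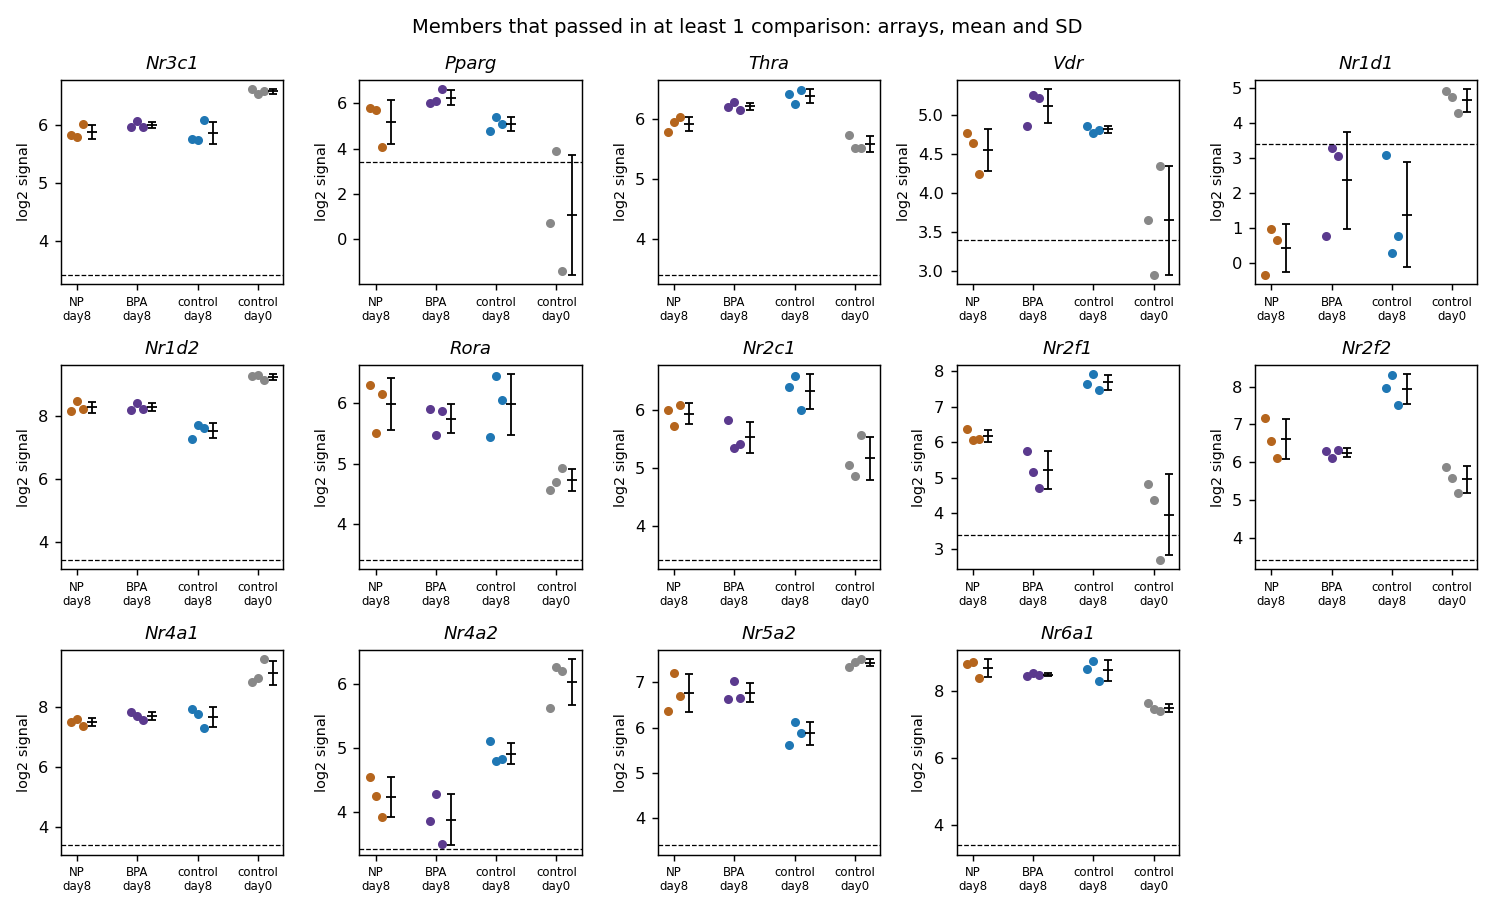
Log2 signal on each array (points, 3 per group) with the mean and SD beside them, for the 14 members that passed in at least 1 comparison; the dashed line is background (3.41) and each panel has its own y axis. Nr1d2 and Nr5a2 on NP and BPA arrays lie between the control groups, Nr2f1 and Nr2f2 with the agents lie below control day8, and Nr4a1 and Nr6a1 on NP and BPA arrays lie within or near the control day8 range.

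NP and BPA were set against each other directly. By limma 0 of 38 members passed, against a background of 0.022% of all genes (0.0165% higher and 0.0055% lower). At an unadjusted p under 0.05 there were 2 members, Thra (-0.29 ± 0.12) and Nr1d1 (-1.93 ± 0.84, below background in both groups). Their adjusted p-values were 0.694 and 0.715. The share of all genes at that unadjusted level was not counted, so these 2 are no result about the members. Nr2f1 was higher on every NP array than on every BPA array, at 0.95 ± 0.49 (95% interval -0.17 to 2.07, adjusted p = 0.765). For Nr1d2 and Nr5a2 the intervals were -0.34 to 0.35 and -0.51 to 0.49. The groups did not overlap for 5 members, Esrra, Pparg, Thra, Vdr and Nr2f1, where the background was 15% of genes.

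**Figure D4:**
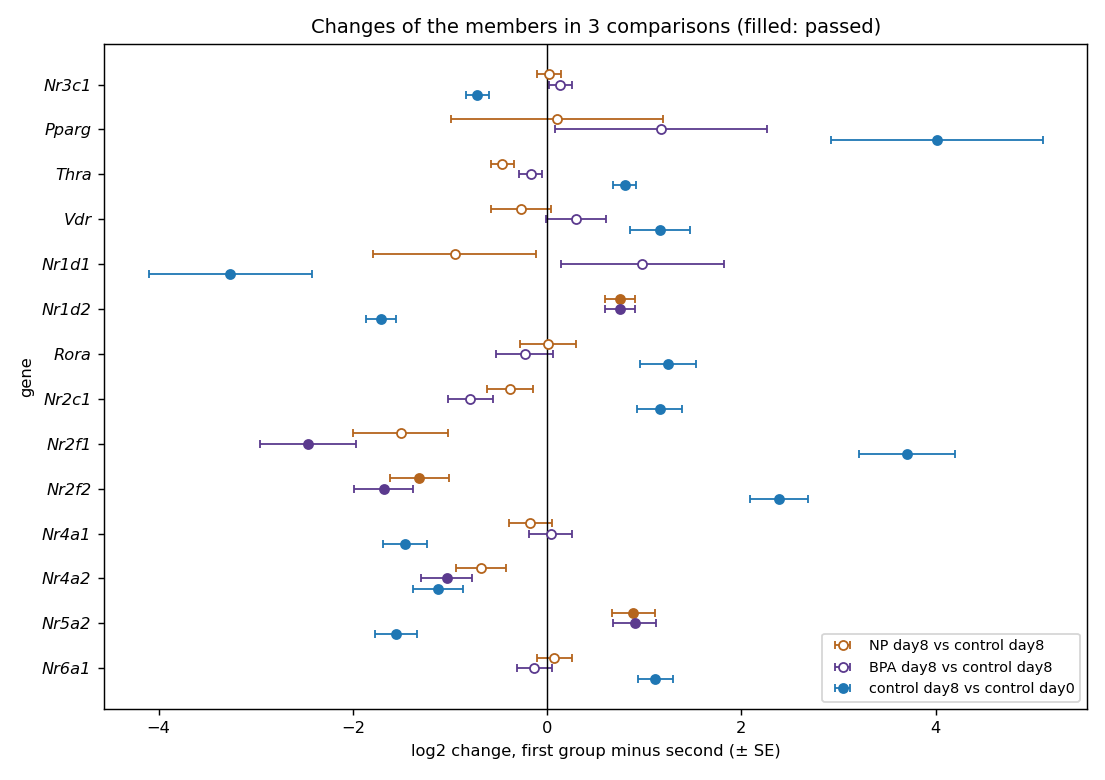
Log2 change with its standard error (x axis) of the 14 members that passed in at least 1 comparison, for NP and for BPA against control day8 and for control day8 against control day0; filled points passed. Nr1d2, Nr5a2 and Nr2f2 passed in all 3 comparisons, with a sign against control day8 that is opposite to that over control differentiation.

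Of 6 measured receptors outside the members, 2 rose and 3 fell over control differentiation (83.3%, against 32.2% of all genes). Against control day8, 2 were higher with NP (33.3%, against 6.5%) and 3 with BPA (50%, against 12.4%). This list too was drawn up with earlier results known, and Esrrb is also one of the pluripotency markers. Its shares are therefore no result about such receptors. Hnf4a, the regulator of hepatic and visceral endoderm genes, and Rarb, a retinoic acid receptor, were below background on all control day0 arrays. With values floored at background they were at least 8.27-fold and 8.99-fold higher on control day8 (adjusted p = 3.71e-05 and 0.000257 without that floor). Nr0b1 (DAX1) fell by 5.17 ± 0.43, and Esrrb, a naive pluripotency factor, fell by 3.35 ± 0.21. Against control day8, Nr0b1 was higher by 3.54 ± 0.43 with NP and 3.20 ± 0.43 with BPA, and Esrrb by 1.89 ± 0.21 and 2.15 ± 0.21. Rarg rose with BPA as well (0.97 ± 0.23).

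The lists of coregulators and targets were drawn up with earlier results known, and their counts are to be read against the shares of all genes called, 32.2% over control differentiation, 12.4% with BPA and 6.5% with NP. Among the coregulators, 3 of 16 coactivators rose and 3 fell over control differentiation (37.5%), and 3 rose with either agent (18.8%). Kat2b, a histone acetyltransferase, fell by 2.08 ± 0.19 at day 8 and was higher than control day8 by 1.29 ± 0.19 with NP and 1.43 ± 0.19 with BPA. Ncoa3, a steroid receptor coactivator of the pluripotency network, was higher by 0.73 ± 0.17 and 0.92 ± 0.17. Of 7 measured corepressors 3 rose at day 8 (42.9%), among them Lcor (2.23 ± 0.20) and Nrip1 (2.10 ± 0.27), and 0 passed with an agent by limma. All 5 measured receptor chaperones fell at day 8, including Fkbp5 (-1.78 ± 0.13) and Fkbp4 (-0.86 ± 0.12), and Fkbp5 and Hsp90aa1 rose with both agents. Their median change was -0.76 at day 8, against 0.10 over all genes.

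Target genes of the receptors were counted by receptor, in lists of 4 to 10 measured genes, against the same shares of all genes (32.2%, 12.4% and 6.5%). Of 7 glucocorticoid targets, 4 fell and 2 rose over control differentiation, 4 rose with NP, and 4 rose and 1 fell with BPA, while Nr3c1 itself did not pass with either agent. Klf9, a target of glucocorticoid and thyroid hormone, fell by 2.15 ± 0.14 and was higher than control day8 by 1.58 ± 0.14 with NP and by 1.48 ± 0.14 with BPA. Among 7 PPAR targets, 1 rose and 3 fell over control differentiation, and 2 rose with NP and 4 with BPA, including Cpt1a, the carnitine transferase of fatty acid oxidation (1.38 ± 0.18 and 1.54 ± 0.18), and Pdk4 (1.36 ± 0.23 and 1.68 ± 0.23). The cholesterol exporters Abca1 (1.52 ± 0.16 and 0.92 ± 0.16) and Abcg1 (1.68 ± 0.22 and 1.76 ± 0.22) were the 2 of 7 LXR targets that rose with NP and with BPA. Over control differentiation 1 LXR target rose and 2 fell. Of 5 thyroid hormone targets Klf9 alone passed. Of 6 PXR and CAR targets 1 passed, the drug exporter Abcb1a, at 1.63 ± 0.19 with NP and 1.87 ± 0.19 with BPA. Of 10 clock genes, 2 rose and 3 fell over control differentiation, 2 rose with NP, and 3 rose and 1 fell with BPA. Arntl, which Nr1d1 and Nr1d2 repress, was higher by 1.01 ± 0.17 with each agent. Of 4 vitamin D targets, S100g rose at day 8 and 0 passed with an agent by limma. Most of these targets have other regulators, and the pluripotency marker sums above moved with the agents as well.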

How the data were processed

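The deposited table held log2 signals per probe set on 12 Affymetrix arrays, made by the authors with MAS5, per the submitters' processing notes, whose version and scaling target are not given in the sources used here. After trimming 2% at each end, linear signals averaged 100.04 on all arrays, so the arrays had been scaled alike. The table held 45101 probe sets, of which 34958 had 1 gene in the platform's gene table, 932 several, and 9211 were not listed. Entrez identifiers tied 34754 of the first kind to RefSeq genes (GRCm38.p6).

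No pseudocount or filter was applied. Samples were grouped by their titles. All 12 arrays entered one limma 3.58.1 model (lmFit and eBayes, R 4.3.3) with a mean for each group, on 18193 genes. Residual degrees of freedom were 8 and prior ones 1.13. The tests were two-sided, with p-values adjusted by the Benjamini-Hochberg method over all genes in each of 4 comparisons and a threshold of 0.05. The number of arrays limits the precision. Where a fold is given as a lower bound, each value under background had first been set to that level, also in groups with only some arrays under it. The adjusted p beside such a fold comes from the fit without that floor.

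The members and lists were chosen with earlier results of these data known. All members were to be described, in full those called and every candidate receptor, and of the other lists up to 2 called genes per direction. The fit was tested on simulated data. Promoters came from RefSeq. Alternatives were 2 pseudocounts, a filter, a floor, 2 normalizations, 2 choices of probe set, 2 variance priors, array weights, fewer groups in the fit, a replicate block and each array left out. Plots were made in Python 3.11.15 (matplotlib 3.10.9).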

Additional observations from a re-analysis of the deposited data

How the results depend on the processing

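Over 25 alternatives, 6 of the 14 members called between control day8 and control day0 (Thra, Nr1d2, Nr2f1, Nr2f2, Nr4a1 and Nr5a2) kept their call throughout, as did Nr2f2 with BPA, and 0 of 3 with NP. The mean of all probe sets, which mixes in probe sets at background, turned the change of Nr1d2 with NP to -0.14 (adjusted p = 0.929), and it called 3680 genes in place of 5856 over control differentiation, 1046 in place of 2251 with BPA and 487 in place of 1182 with NP. It ended the calls between the control groups of Nr3c1, Vdr, Rora, Nr2c1, Nr4a2 and Nr6a1 (adjusted p from 0.137 to 0.692). It called Nr4a3 lower between them (-1.63, adjusted p = 0.021). Members not called in the fit as reported passed there in 5 alternatives for Nr2f6 and in 1 each for Esrra, Rxra and Nr1h4. The call of Nr5a2 with NP was also lost with a robust prior (adjusted p = 0.0526) and without marked probe sets (adjusted p = 0.0587). Under the mean of probe sets 3 members were called with BPA and 0 with NP, and 11 members were above background on control day0, 14 on control day8 and 13 on BPA day8 arrays. With only the compared groups in the fit, which leaves fewer arrays, 1033 genes and 2 members were called with BPA, and 70 genes and 0 members with NP. A pseudocount of 32 gave 3439 genes with BPA and 2338 genes and 5 members with NP. Values floored at background gave 2160 genes and 5 members with NP, the filter to the top 60% gave 1852 genes and the mean-dependent prior 2147. The 4 genes called between NP and BPA became 1 with the filter, 1 with a pseudocount of 8, 0 with 32, 2 with the floor, 0 with the mean-dependent prior, 0 with only those groups and 1 with the replicate block. With the TrpnX median as background, 33 members were above it on control day0 arrays. The causes were not tested unless named.

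Leaving out 1 array at a time gave 1079 to 2263 genes and 2 to 6 members with BPA, 418 to 1242 genes and 0 to 3 members with NP, and 1 to 8 genes between NP and BPA. The fewest genes with BPA came without control day8 replicate 1 and with NP without NP day8 replicate 2. The call of Nr1d2 with BPA was lost without BPA day8 replicate 2 (adjusted p = 0.0504), and with NP without control day8 replicate 1 or NP day8 replicate 2 or 3 (up to 0.089). That of Nr5a2 with BPA was lost without any BPA array and without control day8 replicate 1 or 3 (up to 0.107), and with NP without any array except NP day8 replicate 1 (up to 0.159). Nr2f2 with NP was no longer called once NP day8 replicate 2 or 3, any BPA array, control day8 replicate 1 or 2, or control day0 replicate 2 was removed (up to 0.118). Same-numbered arrays correlated at -0.06 to 0.24 after group means were removed. The labels do not say whether they share a culture or batch, and these correlations cannot settle it. The replicate block ended the call of Nr4a2 with BPA (adjusted p = 0.0532) and moved no count of members by over 1.5 times.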

Other observations

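A second probe set of Esrrg, whose mean over the 12 arrays was lower than that of the chosen probe set, read 4.52, 3.44 and 0.99 on NP day8, -0.66, 3.34 and 0.71 on BPA day8, 4.95, 5.23 and 5.01 on control day8 and -0.40, 2.15 and 2.48 on control day0 arrays. It was above background on all control day8 arrays and below it on all BPA and control day0 arrays. In a fit over all probe sets, its change was -3.93 with BPA against control day8 (adjusted p = 0.0872) and 3.65 between the control groups (adjusted p = 0.0569), so neither passed. This probe set was singled out after its values were seen.

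The probe sets of Rxra also differed. The chosen one changed by 0.15 between control day8 and control day0, and another above background on all arrays by 1.02 (adjusted p = 0.0209). Whether these probe sets read different transcripts was not tested.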
